A study of Mus musculus with 6 samples.

Results

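The 37 genes described here encode the enzymes and carriers that move glucose through glycolysis, the pentose phosphate pathway and the entry of pyruvate into mitochondria. They are a list of names grouped by function, drawn up with earlier results of these data known but with no measured value in its rule, and all 37 were found among the 24453 gene symbols of the expression table. Each is represented by its RefSeq transcript with the highest mean level over the 6 libraries. RNA was sequenced from CD4+Foxp3+ regulatory T cells (Treg cells), which hold other immune cells in check, after flow sorting. The mice were healthy C57BL/6 females. The control group, labelled WT Tg for genotype and called WT here, and the group labelled miR-27 Tg each have 3 libraries. The series title names the mice Foxp3cre het miR-27Tg, and its design text describes overexpression of miR-27a restricted to Treg cells. Foxp3 lies on the X chromosome, so in heterozygous females a Foxp3-driven Cre is active in only some of the Treg cells. The sources used here do not state whether the sort selected Cre-expressing cells, whether WT mice carried Cre, or the age of the mice. They also do not say if each library is a different mouse, and p-values therefore reflect only how far these libraries spread, which may be technical.

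Glucose enters T cells through facilitative transporters, is trapped by hexokinase and is split in glycolysis to pyruvate. Pyruvate is then reduced to lactate and exported, or carried into mitochondria and oxidised by pyruvate dehydrogenase. The pentose phosphate pathway branches off after the first step and supplies NADPH and ribose. Activated effector T cells are known for strong glycolysis driven by mTOR, Myc and HIF-1, whereas Treg cells are known to rely more on mitochondrial oxidation, and Foxp3 is known to restrain glycolysis.

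MicroRNAs repress messenger RNAs mainly through matches to bases 2 to 8 of the microRNA, its seed, in the 3′ UTR. The mature sequences of the miR-27 family are shown here because the transgene encodes one of them, with the seed in capitals (RefSeq, GRCm38.p6):
mmu-miR-27a-3p: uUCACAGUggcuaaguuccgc
mmu-miR-27b-3p: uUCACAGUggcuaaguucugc

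Both forms share 1 seed. Its 7-base match, ACTGTGA, was searched in the 3′ UTR of the GENCODE M21 transcript paired with each gene's RefSeq accession, and all 37 were searched. Only 1 transcript per gene was used, so matches in other forms would be missed. For Pfkfb2 it has 1701 bases, against 2367 for the RefSeq transcript, and only 188 bases of 3′ UTR. Only 1 of the 37 genes (2.7%) held a match, against 14.9% of 11702 tested genes with a 3′ UTR. Tested genes without a paired transcript were searched in their longest 3′ UTR, so both shares may rest on unlike choices of transcript. The 3′ UTRs searched for the 37 ranged from 78 bases (Pgls) to 3734 (Pdk1). The shares were not adjusted for 3′ UTR length, so they do not show that the 37 genes are poor in matches. The gene with the match is Pdha1, the catalytic alpha subunit of pyruvate dehydrogenase. Its match lies on chromosome X from 160122991 to 160122997 (mm10, minus strand), at base 786 of a 3′ UTR of 1574 bases, and is shown with the bases around it and the match in capitals:
Pdha1 3′ UTR site: aggcttggctcACTGTGAagactcctgca

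Pdha1 had 481, 576 and 464 RPKM in WT replicates 1 to 3 against 404, 432 and 509 in miR-27 Tg replicates 1 to 3. RPKM, the unit of every level given here, is reads per kilobase of transcript with each library set to 10000000 counted reads. The miR-27 Tg values reached into the WT range in replicate 3, and the other miR-27 Tg libraries lay below all WT libraries. The log2 fold change, miR-27 Tg minus WT on the log2(RPKM + 1) scale, was -0.18 (SE 0.12, n = 3 a group), and it did not pass the test (adjusted p = 0.622 by limma). Leaving out WT replicate 2 gave -0.083, and leaving out a transgenic library gave -0.11 (replicate 1) or -0.27 (replicate 3). Map3k15, on the opposite strand, covers 21.2% of the exonic bases of Pdha1. A match is a description of the sequence and does not show that the site is used.

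HIF-1, whose regulated subunit Hif1a encodes, is known to bind the letters ACGTG in promoters of glycolytic genes. ACGTG and its reverse complement CACGT were searched from 250 bases before to 50 after the start of each gene (RefSeq, GRCm38.p6), with overlapping matches counted as 1. A promoter was found for 36 of the 37 genes, all but Slc2a3, and 16 of them (44.4%) held a match. Among 9971 tested genes with a promoter the share was 25.5%, and it was 19.6% of all 32851 promoters in that table. The shares were not adjusted for base composition, and a match does not show that HIF-1 binds there. The promoters of the 4 genes whose WT and miR-27 Tg values did not overlap are shown 5′ to 3′, with matches in capitals. They are Ldha at chr7:46845554-46845853 (plus strand), Eno1 at chr4:150236947-150237246 (plus strand), Hif1a at chr12:73907617-73907916 (plus strand) and Pfkfb1 at chrX:150589666-150589965 (plus strand).
Ldha: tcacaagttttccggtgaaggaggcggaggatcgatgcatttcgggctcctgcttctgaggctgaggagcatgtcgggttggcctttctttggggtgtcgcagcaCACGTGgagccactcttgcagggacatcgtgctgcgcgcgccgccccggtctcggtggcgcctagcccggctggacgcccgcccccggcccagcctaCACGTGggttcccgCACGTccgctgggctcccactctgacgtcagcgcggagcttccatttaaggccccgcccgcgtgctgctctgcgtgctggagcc
Eno1: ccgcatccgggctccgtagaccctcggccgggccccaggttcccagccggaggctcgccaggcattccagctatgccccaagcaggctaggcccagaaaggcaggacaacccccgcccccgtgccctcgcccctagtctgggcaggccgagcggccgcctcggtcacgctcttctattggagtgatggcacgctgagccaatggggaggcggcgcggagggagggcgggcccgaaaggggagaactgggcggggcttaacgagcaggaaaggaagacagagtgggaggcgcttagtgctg
Hif1a: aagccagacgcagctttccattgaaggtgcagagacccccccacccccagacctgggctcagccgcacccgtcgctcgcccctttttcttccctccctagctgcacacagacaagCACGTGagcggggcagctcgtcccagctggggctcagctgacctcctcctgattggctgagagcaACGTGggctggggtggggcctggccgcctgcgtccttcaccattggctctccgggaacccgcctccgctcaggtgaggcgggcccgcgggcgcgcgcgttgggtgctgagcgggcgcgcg
Pfkfb1: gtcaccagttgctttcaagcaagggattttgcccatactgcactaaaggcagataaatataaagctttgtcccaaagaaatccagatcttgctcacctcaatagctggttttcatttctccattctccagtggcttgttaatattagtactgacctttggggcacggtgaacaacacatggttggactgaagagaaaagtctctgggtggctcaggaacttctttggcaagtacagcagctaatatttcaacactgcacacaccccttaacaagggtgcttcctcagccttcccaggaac

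The Ldha promoter held 3 matches and that of Hif1a 2, and no match was in these windows of Eno1 and Pfkfb1. The Hif1a window belongs to the annotated start 6543 bases downstream of the transcript kept for its level. Of the 36 windows, 26 belong to exactly the start of the kept transcript. Among the others are those of Gapdh (694 bases away) and G6pdx (281), each with 1 match. Among the 16 genes with a match the median log2 fold change was 0.014, and among the 20 without one it was 0.062.

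Counted reads summed over all transcript rows, recovered from the values of single reads, ranged from 37700000 to 42100000 for WT libraries. For transgenic ones they ranged from 34400000 to 38100000. A read shared by several transcripts was counted for each, so these totals are not the sequencing depth. The transgene's hairpin, Mir27a, averaged 29.3 RPKM in WT against 8089 in miR-27 Tg, and the groups did not overlap. Treg markers were high in every library, and 0 of 7 passed the test (Foxp3, Il2ra, Ctla4, Ikzf2, Tnfrsf18, Cd4 and Cd3e). Their summed level was 10000 to 10700 RPKM in the WT group against 8932 to 9434 in the transgenic one. Ctla4 differed most, with a mean of 3436 RPKM in WT against 2335 in miR-27 Tg (log2 fold change -0.56, adjusted p = 0.0868 by limma). Ikzf2 averaged 585 against 403.5 (-0.51, adjusted p = 0.290 by limma). These 2 of 7 (28.6%) had an unadjusted p under 0.05, against 13% of all genes tested. The groups did not overlap for Ctla4, lower in miR-27 Tg, and Cd4, higher with 2207 against 1946 in WT. Of the 7, 3 had a fold change above 0 (Foxp3, Il2ra and Cd4) and 4 below. The lower sum therefore does not show that these markers fell as a set. Myeloid markers summed to 118 to 332 RPKM in WT against 360.1 to 869 in miR-27 Tg. Of 10 listed 9 were tested, all 9 had a fold change above 0 and 1 passed (Itgam), while Cd14 stayed between 0 and 1.23 RPKM. Of the 6 CD8 T and NK cell markers listed, 5 were tested and 2 were lower (Nkg7 and Xcl1). Of the others, Cd8b1 averaged 81.3 RPKM in WT against 136 in miR-27 Tg (log2 fold change 0.72, adjusted p = 0.258 by limma), Klrb1c 5.56 against 2.07, Cd8a 16.2 against 16.6 and Ncr1, not tested, 0.36 against 1.21. The groups did not overlap for Cd8b1, Klrb1c and Ncr1. No marker of B, erythroid or cycling cells passed. The part of other cells in the results below was not tested. In sorted bulk RNA, fewer cells of a type and less RNA per cell cannot be told apart.

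The 37 genes were well expressed as a group. Their median level over all libraries was 143.6 RPKM, against 64.1 for the 13621 genes tested (those with a mean of at least 1 RPKM), and all 37 passed that filter. Means of 5 genes exceeded 500 RPKM, 18 lay between 100 and 500, 10 between 20 and 100, and 4 below 20. Lactate dehydrogenase A (Ldha, 1253 RPKM), pyruvate kinase (Pkm, 977) and aldolase A (Aldoa, 951) stood at the top, followed by Gpi1 (572) and Taldo1 (514). At the bottom were Eno2 (11.97), Aldoc (11.7), Hk2 (9.81) and Pgam1 (6.74). The spread between replicates, as a coefficient of variation, had a median of 11.9% in WT (3.09% to 39.4%) and 9.51% in miR-27 Tg (2.98% to 25.7%).

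**Figure D1:**
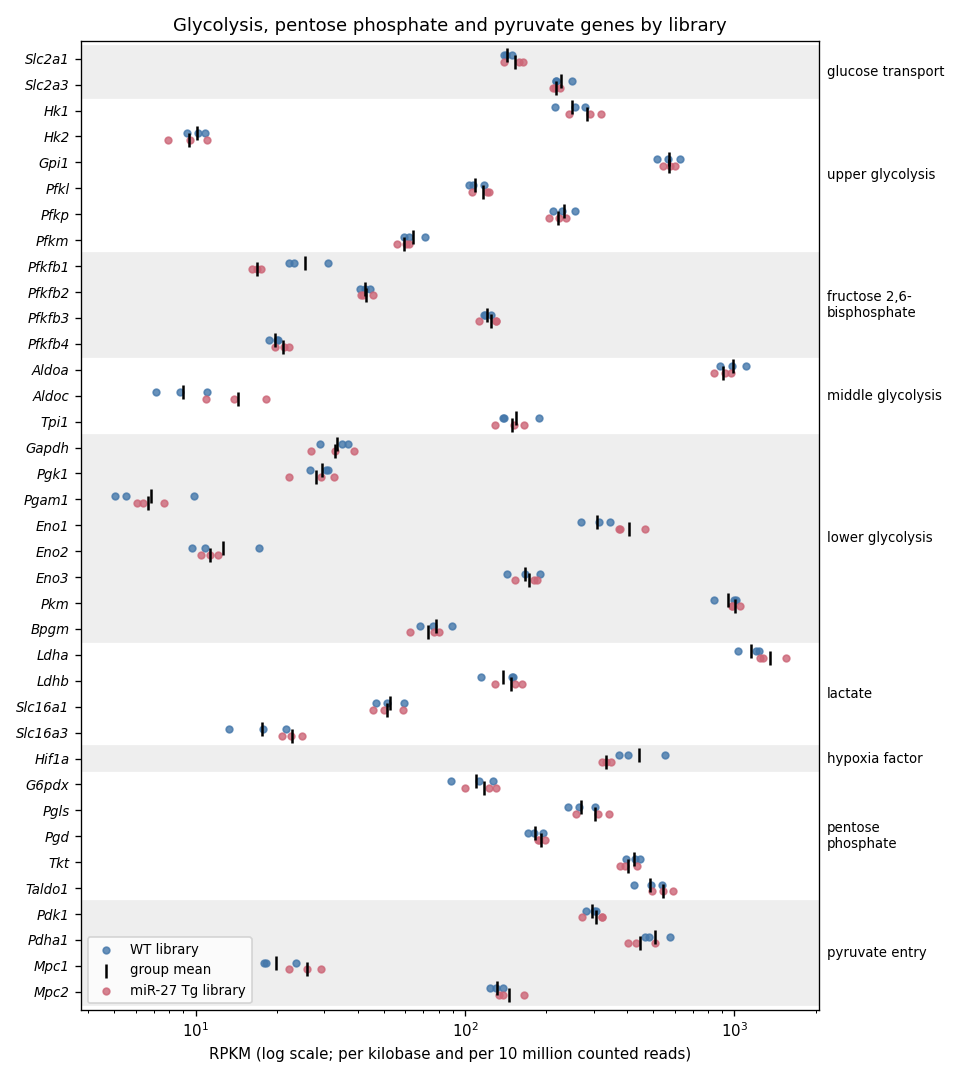
Level of each gene in RPKM (log axis) in the 3 WT libraries (blue) and 3 miR-27 Tg libraries (red), with group means as vertical marks and genes grouped by role. Levels span from 6.74 for Pgam1 to 1253 for Ldha as means over all libraries, and the groups overlap for most genes.

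The comparison between miR-27 Tg and WT asked whether these genes differ when miR-27 is overexpressed. By limma, with p-values adjusted over all genes tested, 0 of 37 passed the threshold of 0.05, while 140 of 13621 genes did (1.03%, with 0.374% higher and 0.653% lower in miR-27 Tg). At an unadjusted p under 0.05, 2 of the 37 were above WT (Eno1 and Aldoc) and 2 below (Pfkfb1 and Hif1a), 10.8% against 13% of all genes tested (4.59% above and 8.43% below). The groups did not overlap for 4 of the 37 (10.8%), namely Ldha and Eno1 with higher and Pfkfb1 and Hif1a with lower miR-27 Tg values, against 18.5% of all genes tested (6.84% higher and 11.6% lower). The median log2 fold change was 0.040, with 22 genes above 0 and 15 below, against -0.013 for all genes tested, of which 47.1% were above 0. The 95% interval of the log2 fold change lay within 0.5 of 0 for 27 genes and within 1 for 36, all but Aldoc. These intervals rest on the spread of these libraries only, and they do not show that smaller differences are absent. Of the 37, 30 had a log2 fold change within 0.2 of 0.

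**Figure D2:**
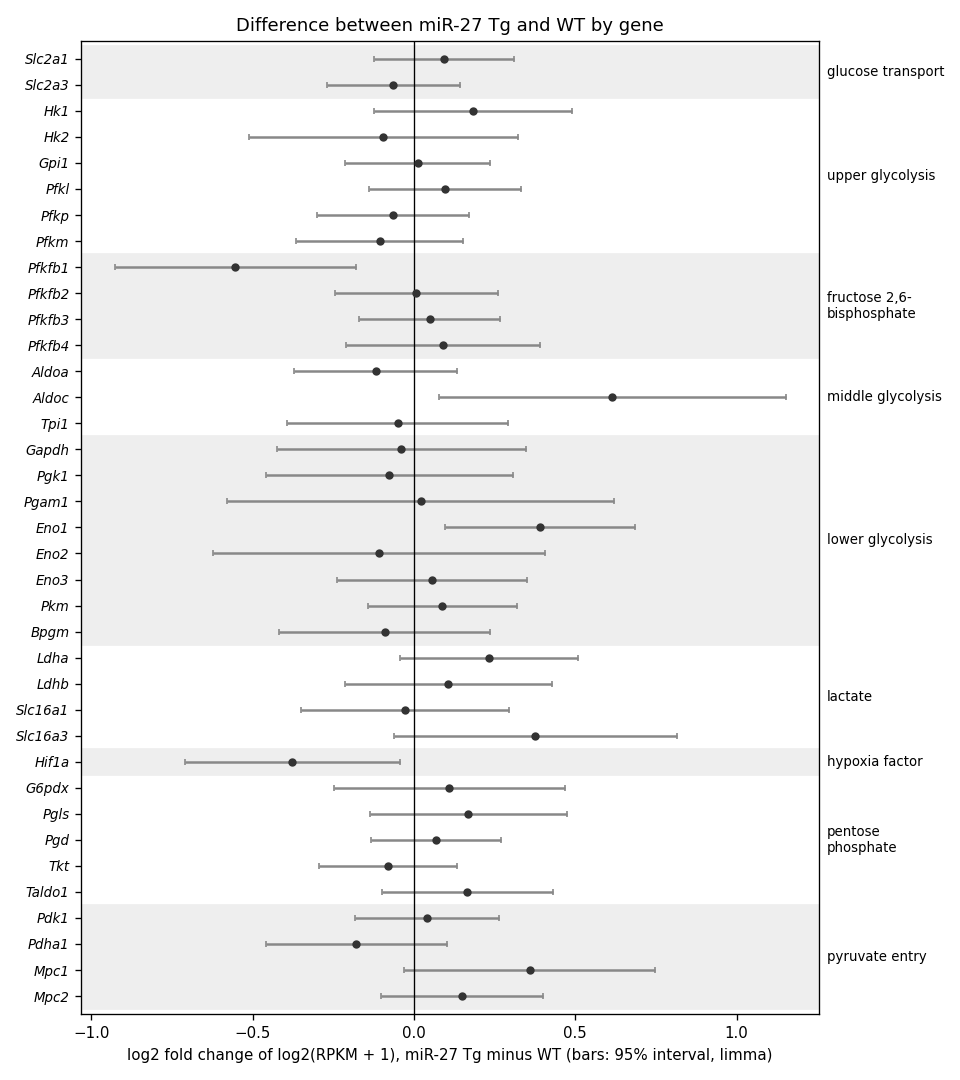
Log2 fold change of each gene, miR-27 Tg minus WT, with its 95% interval from limma, grouped by role. The intervals of Pfkfb1, Hif1a, Eno1 and Aldoc do not reach 0 before adjustment over all genes, and none of the 37 passes after it.

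Glucose transporters came first in the pathway. Slc2a1 (GLUT1), the transporter that activated T cells raise, had 139, 149.5 and 142 RPKM in WT against 158, 164 and 139.6 in miR-27 Tg. The groups overlapped through miR-27 Tg replicate 3 (log2 fold change 0.093, 95% interval -0.12 to 0.31, adjusted p = 0.761 by limma). Slc2a3 (GLUT3), the high-affinity form of lymphocytes and neurons, had 217, 249 and 217 RPKM in WT against 215, 225 and 213 in miR-27 Tg. WT replicate 2 was the highest and the other 5 libraries lay close together (-0.064, adjusted p = 0.846 by limma). Slc2a3 made up 61.3% ± 1.09 of the summed level of both transporters in WT against 58.6% ± 1.51 in miR-27 Tg (SD, n = 3).

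Hexokinase traps glucose as glucose 6-phosphate, and Hk1, the constitutive form, made up nearly all of the summed RNA level of Hk1 and Hk2. Hk1 had 278, 217 and 256 RPKM in WT against 319, 291 and 243 in miR-27 Tg, with overlapping groups (log2 fold change 0.18, SE 0.13, adjusted p = 0.642 by limma). Hk2, the inducible form that HIF-1 and Myc are known to drive, had 9.27, 10.9 and 10.2 RPKM in WT against 11, 9.57 and 7.88 in miR-27 Tg (-0.095, SE 0.18, adjusted p = 0.895 by limma). The Hk2 values rest on 149 to 235 reads per library, and its share of both hexokinases was 3.95% ± 0.786 in WT against 3.22% ± 0.0987 in miR-27 Tg.

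Gpi1, the isomerase that makes fructose 6-phosphate, had means of 569.9 and 574 RPKM (WT, then miR-27 Tg). Phosphofructokinase, the committing step of glycolysis, was present in all 3 forms. The platelet form Pfkp had 233 and 222 RPKM, the liver form Pfkl 109 and 117, and the muscle form Pfkm 64.3 and 59.5 (WT, then miR-27 Tg). Pfkp led in every library, with 53.4% to 58.9% of the summed level. Adjusted p of these 4 genes by limma ranged from 0.768 to 0.979, and 18.0% of the exonic bases of Pfkp are shared with Pitrm1.

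The bifunctional enzymes of the Pfkfb family make and break fructose 2,6-bisphosphate, the strongest activator of phosphofructokinase. Pfkfb3, the form with the highest kinase activity, was the most abundant, with 124, 118 and 118 RPKM in WT against 130.3, 130.2 and 113 in miR-27 Tg (log2 fold change 0.048, adjusted p = 0.8997 by limma). Pfkfb2 had means of 42.6 and 42.8 RPKM and Pfkfb4 of 19.7 and 21.1. The value of Pfkfb2 is uncertain, since Gm29427 on the same strand covers 69.5% of its exonic bases. Pfkfb1 (NM_008824, mm10 chromosome X from 150589921 to 150643878), the form known from liver and muscle, had 23.2, 31.0 and 22.2 RPKM in WT against 16.2, 16.9 and 17.5 in miR-27 Tg. All miR-27 Tg libraries lay below all WT libraries, and WT replicate 2 was the highest. The log2 fold change of Pfkfb1 was -0.55 (SE 0.16, 95% interval -0.93 to -0.18), the lowest adjusted p of the 37 genes by limma, and it did not pass (adjusted p = 0.191). It rests on 100 to 210 reads per library, and no 50-base stretch of its transcript was found in another annotated gene. As a share of the summed level of the 4 Pfkfb genes, Pfkfb1 had 12.2% ± 2.15 in WT against 8.22% ± 0.541 in miR-27 Tg.

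Aldolase splits fructose 1,6-bisphosphate, and Aldoa made up at least 98.06% of the summed RNA level of Aldoa and Aldoc in every library. Aldoa had 991 ± 113 RPKM in WT against 911 ± 64.6 in miR-27 Tg (adjusted p = 0.733 by limma). Aldoc, the brain form, had 8.74, 11.1 and 7.165 RPKM in WT against 10.9, 18.3 and 13.9 in miR-27 Tg. The groups met between WT replicate 2 and miR-27 Tg replicate 1. Its log2 fold change was 0.61 with the widest interval but for Pgam1 (SE 0.23, 95% interval 0.076 to 1.15), and it did not pass (adjusted p = 0.308 by limma). Tpi1, which interconverts the 3-carbon products, had means of 155 and 149 RPKM (WT, then miR-27 Tg).

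Lower glycolysis yields ATP and NADH and ends in pyruvate. Gapdh, its first enzyme and a common reference gene, was listed at only 36.6, 35.0 and 29.0 RPKM in WT against 26.8, 32.8 and 38.8 in miR-27 Tg. Groups overlapped fully (log2 fold change -0.039, adjusted p = 0.959 by limma). Pgk1, the first ATP-yielding kinase of the pathway, had means of 29.4 and 28.1 RPKM, and the mutase Pgam1 had 6.81 and 6.68. Bpgm, which makes 2,3-bisphosphoglycerate and is best known from red cells, had 78.0 and 73.1.

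Shared sequence bears on how reads of these genes could be counted. In the GENCODE M21 transcripts, 90.4% of the 50-base stretches of the Gapdh transcript occur in another annotated gene, as do 68.0% of those of Pgk1 and 41.5% of those of Pgam1. Gapdh shares such stretches with 215 annotated pseudogenes, Pgk1 with 5 and Pgam1 with 4. By contrast the share was under 1% for 18 of the 37 genes. The treatment of reads that align to more than 1 place is not stated there, so the levels of these 3 genes are uncertain, as is the place of Pgam1 as the lowest of the 37. The top gene, Ldha, shares 19.1% of its stretches, with 14 pseudogenes. Read length is not given either, and 50 bases was chosen as a description.

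**Figure D3:**
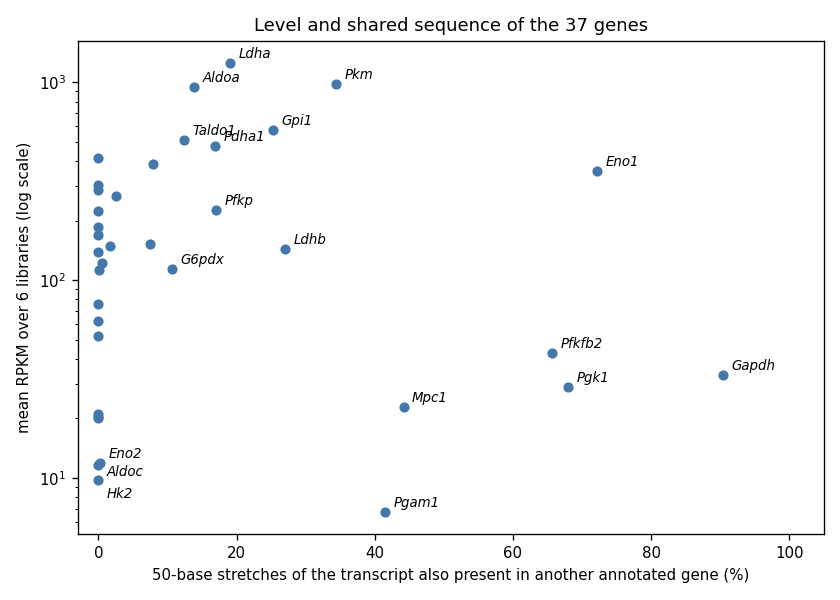
Mean RPKM over the 6 libraries (log axis) against the percentage of 50-base stretches of each transcript that occur in another annotated gene of GENCODE M21, 1 point per gene. Gapdh, Pgk1 and Pgam1 combine shares of 41.5% to 90.4% with means of 6.74 to 33.2 RPKM, and Eno1 has a share of 72.2% with 357 RPKM.

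Enolase makes phosphoenolpyruvate. Eno1 (NM_023119, mm10 chromosome 4 from 150237197 to 150248873), the ubiquitous form, had 268, 344 and 313 RPKM in WT against 374, 375 and 467 in miR-27 Tg. All miR-27 Tg libraries lay above all WT libraries, with miR-27 Tg replicate 3 the highest. The ratio of means was 1.31 and the log2 fold change 0.39 (SE 0.13, 95% interval 0.095 to 0.69), which did not pass (adjusted p = 0.238 by limma). The near-identical copy Eno1b is listed in the deposited table at 2 positions, the first on chromosome 4 from 150237324 to 150248873, inside Eno1. Its values of 275, 356 and 326 RPKM in WT against 386, 388 and 482 in miR-27 Tg ran parallel to those of Eno1, so the reads of both genes were not told apart. Eno3, the muscle form, had 167 and 173 RPKM, with no shared 50-base stretch, and Eno2, the neuronal form, 12.6 and 11.3. Eno1 made up 63.3% ± 0.792 of the summed level of the 3 enolases in WT against 68.6% ± 2.80 in miR-27 Tg, without overlap. This share is computed from the same Eno1 values and is not a separate observation.

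Pyruvate kinase, which closes glycolysis, was the second most abundant of the 37 genes. Pkm had 839, 1009 and 999 RPKM in WT against 982, 982 and 1052 in miR-27 Tg, with WT replicate 1 alone below the rest (log2 fold change 0.087, adjusted p = 0.796 by limma). The table lists Pkm with 2 transcripts of 2419 bases. NM_011099 encodes the M2 form typical of lymphocytes and NM_001253883 the M1 form of muscle and brain. In GENCODE they carry alternative exons of 167 bases each on chromosome 9, from 59675568 to 59675734 for NM_011099 and from 59675029 to 59675195 for NM_001253883. NM_011099 exceeded NM_001253883 by 351, 482 and 534 reads in WT against by 490, 448 and 484 in miR-27 Tg. The excess was in the same direction in all 6 libraries, and the groups overlapped.

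Lactate dehydrogenase regenerates NAD by reducing pyruvate. Ldha (NM_010699, mm10 chromosome 7 from 46845804 to 46855627), the form that favours lactate, had 1027, 1198 and 1228 RPKM in WT against 1275, 1240.4 and 1549 in miR-27 Tg. The groups did not overlap, but miR-27 Tg replicate 2 was close to WT replicate 3. The log2 fold change was 0.23 (SE 0.12, adjusted p = 0.481 by limma), and it was 0.13 without miR-27 Tg replicate 3 and 0.15 without WT replicate 1. Ldhb, the form that favours pyruvate, had 115, 151 and 149 RPKM in WT against 129, 154 and 163 in miR-27 Tg (0.11, adjusted p = 0.829 by limma). The Ldha share of both was 89.3% ± 0.585 in WT against 90.1% ± 0.969 in miR-27 Tg.

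Lactate leaves cells through monocarboxylate carriers. Slc16a3 (MCT4), the exporter of strongly glycolytic cells, had 17.8, 13.4 and 21.6 RPKM in WT against 20.9, 22.6 and 24.9 in miR-27 Tg. WT replicate 3 lay above miR-27 Tg replicate 1, and WT replicate 2 was the lowest (log2 fold change 0.38, SE 0.19, adjusted p = 0.467 by limma). Without WT replicate 2 it was 0.20. Slc16a1 (MCT1) was the more abundant carrier, with means of 52.5 and 51.5 RPKM (adjusted p = 0.965 by limma).

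Hif1a, the oxygen-regulated transcription factor that induces many of these genes, was the 1 regulator among the 37. It had 551, 401 and 372 RPKM in WT against 333, 324 and 347 in miR-27 Tg (NM_001313920, mm10 chromosome 12 from 73901324 to 73947530). All miR-27 Tg libraries lay below all WT libraries, and WT replicate 1 was far above the other WT libraries. The log2 fold change was -0.38 (SE 0.14, 95% interval -0.71 to -0.045), and it did not pass (adjusted p = 0.311 by limma). Without WT replicate 1 it was -0.21 (adjusted p = 0.484 by limma). Its protein is mainly controlled by degradation, which RNA levels do not measure, and other genes share 10.9% of its exonic bases.

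**Figure D4:**
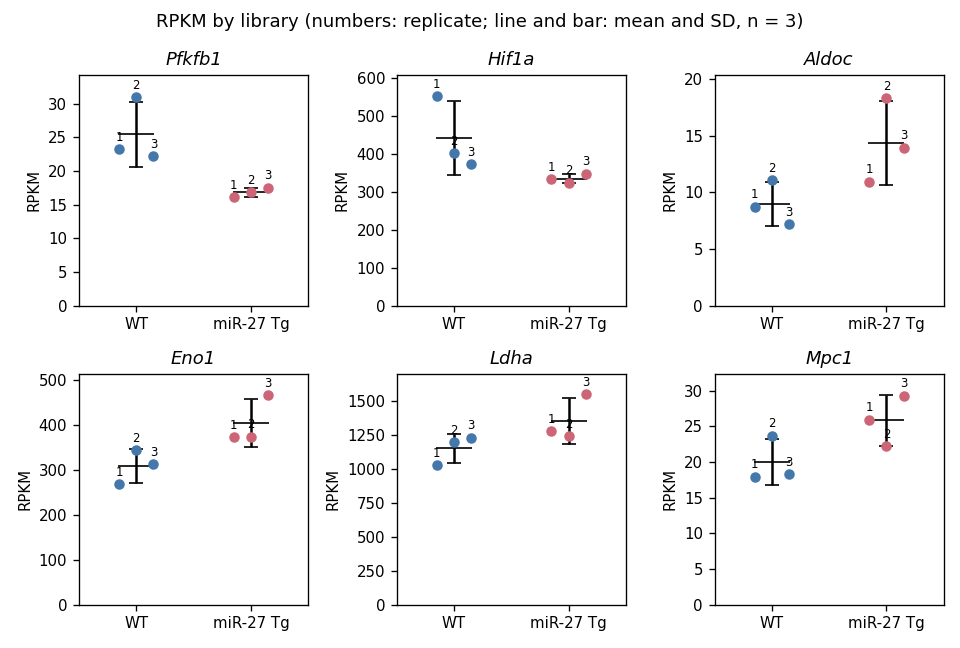
RPKM of Pfkfb1, Hif1a, Aldoc, Eno1, Ldha and Mpc1 in each library, with the replicate number beside each point and lines for the mean and SD (n = 3). Pfkfb1 and Hif1a lie lower, and Eno1 and Ldha higher, in all miR-27 Tg libraries, while Aldoc and Mpc1 overlap between groups.

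Pentose phosphate genes were expressed throughout. G6pdx, the NADPH-yielding entry enzyme, had 89.1, 127 and 113 RPKM in WT against 100.4, 123 and 130.1 in miR-27 Tg, with overlapping groups (log2 fold change 0.11, SE 0.15, adjusted p = 0.846 by limma). The lactonase Pgls had means of 269.7 and 304 RPKM, and Pgd, the second NADPH-yielding enzyme, 182 and 191. In the non-oxidative arm the transketolase Tkt had 424 and 401 RPKM and the transaldolase Taldo1 485 and 543. Of the 5 genes, 4 had a log2 fold change above 0, from 0.068 to 0.17, Tkt had -0.080, and adjusted p by limma ranged from 0.628 to 0.846.

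Pyruvate enters mitochondria through a carrier of Mpc1 and Mpc2. Mpc1 had 17.9, 23.7 and 18.3 RPKM in WT against 25.9, 22.2 and 29.3 in miR-27 Tg, where WT replicate 2 lay above miR-27 Tg replicate 2 (log2 fold change 0.36, SE 0.17, adjusted p = 0.430 by limma). The antisense transcript 4930506C21Rik covers 27.9% of the exonic bases of Mpc1, and 44.2% of its 50-base stretches occur in another annotated gene, so its value is uncertain. Mpc2 had 124, 131 and 138.5 RPKM in WT against 134, 138 and 166 in miR-27 Tg (0.15, SE 0.11, adjusted p = 0.644 by limma). Mpc2 made up 86.8% ± 1.91 of both subunits in WT against 84.96% ± 1.18 in miR-27 Tg. Pdk1, the kinase that switches pyruvate dehydrogenase off, had 307, 302 and 282 RPKM in WT against 272, 324 and 322 in miR-27 Tg, with overlapping groups (0.040, adjusted p = 0.923 by limma).

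**Figure D5:**
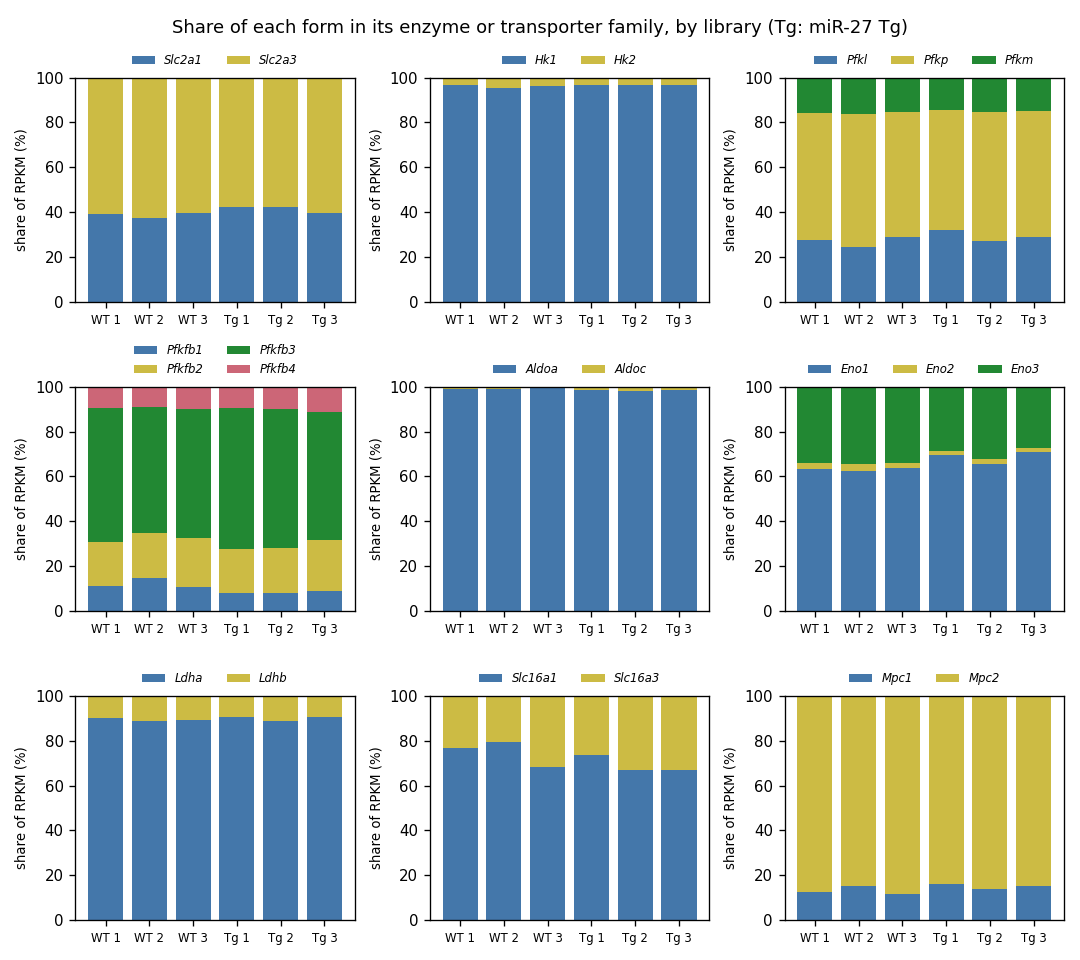
Share of each form in the summed RPKM of its enzyme or transporter family, as stacked bars in percent for each of the 6 libraries. Hk1, Aldoa and Ldha hold most of their families in every library, and the Eno1 share is 62.4% to 63.97% in WT against 65.5% to 70.95% in miR-27 Tg.

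Other genes of the same pathways were taken from a list of 48, of which 38 were tested. By limma 1 was higher in miR-27 Tg and 0 were lower (1.03% of all genes tested passed), and 7 (18.4%) had non-overlapping groups, against 18.5% of all genes tested. Pck2 (NM_028994), the mitochondrial phosphoenolpyruvate carboxykinase that makes phosphoenolpyruvate from oxaloacetate, had 60.3, 50.8 and 58.6 RPKM in WT against 103, 92.1 and 83.1 in miR-27 Tg. All miR-27 Tg libraries lay far above all WT libraries. Its log2 fold change was 0.70 (SE 0.12, adjusted p = 0.0453 by limma), and the call was lost without any 1 of the 6 libraries, with adjusted p of 0.106, 0.107 and 0.138 without WT replicates 1 to 3 and 0.130, 0.118 and 0.109 without miR-27 Tg replicates 1 to 3. The log2 fold change stayed between 0.63 and 0.78 in all 17 alternatives run.

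With Pck2, 4 of the 38 genes (10.5%) had an unadjusted p under 0.05, against 13% of all genes tested, and the other 3 did not pass after adjustment. Epas1, the HIF-2 alpha subunit, had 6.78, 2.53 and 6.07 RPKM in WT against 18.1, 10.3 and 10.5 in miR-27 Tg (log2 fold change 1.23, adjusted p = 0.172 by limma), and the groups did not overlap. Myeloid markers also summed to higher levels in all miR-27 Tg than in all WT libraries. In WT, replicate 2 was the lowest for both Epas1 and the myeloid sum. Within miR-27 Tg the order differed: Epas1 was highest in replicate 1, with a myeloid sum of 360.1 RPKM, and lowest in replicate 2, with 869. The part of myeloid cells in the Epas1 values was not tested. Pcx, the pyruvate carboxylase, had 7.55, 6.72 and 7.59 RPKM in WT against 4.65, 4.998 and 4.08 in miR-27 Tg (-0.57, adjusted p = 0.226 by limma). Pgam2, the muscle phosphoglycerate mutase, had 19.3, 24.0 and 31.8 RPKM in WT against 31.8, 39.6 and 34.5 in miR-27 Tg (0.50, adjusted p = 0.311 by limma).

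Regulators upstream of the pathway gave no call by limma among 13 tested, and 1 (Epas1) had an unadjusted p under 0.05. Myc, a driver of glycolytic genes, had 365, 277 and 370.2 RPKM in WT against 319, 265 and 346 in miR-27 Tg (log2 fold change -0.12, adjusted p = 0.811 by limma). Mtor had 73.5, 59.6 and 68.2 RPKM in WT against 78.3, 69.0 and 62.1 in miR-27 Tg (0.055, adjusted p = 0.922 by limma). Of 10 tested genes listed for the mitochondrial use of pyruvate, namely Pcx and genes of pyruvate dehydrogenase, its kinases and phosphatases, 0 passed by limma and 1, Pcx, had an unadjusted p under 0.05. Of 7 further pentose phosphate and ribose phosphate genes 0 passed and 0 had an unadjusted p under 0.05.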

How the data were processed

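RNA-seq of sorted Treg cells, 3 WT and 3 miR-27 Tg libraries, was analysed. The authors deposited 1 table of RPKM values, which per the file headers HOMER computed from exonic reads of either strand over mm10 RefSeq transcripts, scaled to 10000000 counted reads per library. Per the submitters' processing notes, STAR 2.2.0c and the builds mm10 and GRCm38 were used. Because both strands were counted, overlapping genes cannot be told apart, and a read in an exon shared by several transcripts of a gene was counted for each.

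Of 34711 transcript rows, 1 per symbol was kept (highest mean RPKM), leaving 24453 genes, and the 13621 whose mean over the 6 libraries reached 1 RPKM were tested after log2(RPKM + 1) transformation (limma 3.58.1, R 4.3.3; intensity trend, two-sided, Benjamini-Hochberg over all genes tested, threshold 0.05, no replicate block), which was checked on simulated data. The log2 scale with a pseudocount understates changes of low genes. Low values were whole multiples of 1 read (100% within 0.1 of a read, on transcripts of 200 to 4000 bases). This gave read numbers per transcript and their total over all transcript rows, and no count model was used. The number of reads limits precision for genes with few of them. Sequence searches used GENCODE M21 and RefSeq tables (GRCm38) in Python.

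The genes and lists were chosen with earlier results of these data known. Named with full values are genes with non-overlapping groups and an unadjusted p under 0.05 and 15 genes chosen by function. Of other pathway genes those with an unadjusted p under 0.05 are named. Full values of Aldoc, Pdha1, Eno1b, Myc and Mtor were added after their values were seen. Alternatives covered pseudocount, filter, scaling, weights, variance trend, short transcripts, transcript choice, a replicate block and each library left out.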

Additional observations from a re-analysis of the deposited data

How the results depend on the processing

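The 17 alternatives left 0 of the 37 genes called in each, and the median log2 fold change of the 37 stayed between 0.00075 (without WT replicate 1) and 0.082 (without WT replicate 2). The sign of the log2 fold change changed in at least 1 alternative for 16 of the 37 genes and in none for 21, among them Pfkfb1, Hif1a, Eno1, Aldoc, Ldha, Slc16a3 and Mpc1. The share of the 37 with an unadjusted p under 0.05 moved with the setting. It was 13.5% with median-of-ratios size factors (14.1% of all genes), 16.2% with quantile normalization (13.7%) and 8.11% with no trend (13.6%). Ldha and Mpc1 fell under 0.05 with both scalings, and Hif1a rose above it with size factors and with no trend. The call of Pck2 was also lost with no filter (adjusted p = 0.0735 by limma), median-of-ratios size factors (0.0585), quantile normalization (0.0558) and no trend (0.0703).

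Over the whole table, 140 genes were called, 48 with no filter, 225 with array weights and 276 with a replicate block. Each library left out lowered the count, to 11, 48 and 4 without WT replicates 1 to 3 and to 27, 56 and 5 without miR-27 Tg replicates 1 to 3, a range of 4 to 56 with fewer libraries. The other 8 settings gave 127 to 192. Same-numbered libraries had correlations of deviations of 0.368, 0.097 and 0.037 for numbers 1 to 3, which does not show that the numbers pair them. Of the 37 genes, Pgam1 (36 to 76 reads per library) and Mpc1 (62 to 91) had the fewest reads, so counting error limits them most.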

Other observations

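Libraries differed in the level of these genes within groups. WT replicate 1 was the lowest WT library for 24 of the 37 genes and WT replicate 2 the highest for 23. In miR-27 Tg, replicate 1 was the lowest for 22 and replicate 3 the highest for 23. The summed level of the 37 genes was 8196, 9348 and 8804 RPKM in WT against 8541, 8968 and 9632 in miR-27 Tg, so the groups overlapped.

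Txnip, a glucose-responsive protein that restrains glucose uptake, had 2911, 2540.2 and 3578 RPKM in WT against 2455, 2566 and 5922 in miR-27 Tg, with miR-27 Tg replicate 3 far above the other 5 libraries (log2 fold change 0.17, adjusted p = 0.899 by limma). Some forms of other tissues were at the floor of the table: Pgk2, Fbp1 and Fbp2 were listed at 0 in all 6 libraries, and Hkdc1, Pklr and Pdk4 did not exceed 0.2 RPKM in any. These genes were singled out after their values were seen.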
